A study of Homo sapiens with 11 samples.

Results

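CTCF was mapped in gene deserts, taken here as every place more than 200 kb from the body of any protein-coding gene on chromosomes 1 to 22 (hg38, RefSeq gene starts and ends). The 3 CTCF summit lists held 2723 such summits of 69490 on these chromosomes. Of them 1297 came from ORC2 deletion cells, 720 from rescue cells and 706 from WT cells. They are set beside the 33648 summits inside protein-coding genes. The assay was CUT&RUN, in which a nuclease bound to an antibody cuts out the DNA around a chromatin protein. All cells were HCT116 p53-/-, a human colorectal cancer line without p53, so the WT cells lack p53 too. The ORC2 deletion line is 1 clone made with CRISPR/Cas9, and the rescue cells were cloned after ORC2 had been returned on a plasmid. There were 2 CTCF libraries for each of the 3 genotypes, and 2 IgG background libraries each for ORC2 deletion and WT cells but 1 for rescue cells, 11 in all.

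CTCF is a zinc finger protein that binds a long DNA motif, stops the loop-extruding cohesin ring and so sets the ends of chromatin loops. In gene deserts, which often flank developmental genes, such sites are known to frame the reach of distant enhancers. ORC2 is a subunit of the origin recognition complex, which marks where DNA replication can start. Each summit is the highest base of a peak, and its value is the deposited −log10 q of the authors' peak calling. The values are not scaled between lists, so summits are ranked only within their own list. Where a fixed minimum value is set in every list, it takes a different part of each. Where the values of 1 site are given for several lists, they stand side by side and are no measure of a change in binding. There is 1 list per genotype and no list names a replicate, so no difference between genotypes has a replicate check and none was tested. The intervals below are 95% intervals that cover counting error only, and neighbouring summits are not independent. How deeply the libraries were sequenced is unknown.

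The label of a gene desert holds only for protein-coding genes. Of the 506 stretches with such a summit, 503 held some other annotated gene and 498 held a lncRNA gene. The stretch with the most summits, between the olfactory receptor gene OR4E1 and DAD1 on chromosome 14, is the T cell receptor alpha and delta locus, with 125 receptor gene segments that RefSeq does not class as protein-coding. In all 4 stretches held immune receptor segments. Lists without them gave values inside the intervals of the main ones.

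Some promoter sequences near desert summits hold a core of the CTCF motif, and these are printed as examples. They were chosen for that match and do not stand for desert sites in general. RefSeq's promoter windows (GRCh38.p14, 250 bases before to 50 after a gene's start) were searched on both strands for the letters CCNNNAGNNGGC, a core of the CTCF motif. Of 33725 windows on chromosomes 1 to 22, 10.6% held it. Within 200 bp of a desert summit lay 21 windows, and 6 of them held the core. Each match is shown 5′ to 3′ on the strand that carries it, with the core in capitals.
LOC107985848 (chr2:7672238-7672267, minus strand): gggatgcagCCACCAGGTGGCaggatggtg
LOC105374715 (chr5:33049525-33049554, minus strand): ctactcactCCCAGAGCAGGCcacacccta
LOC105379102 (chr5:101678780-101678809, minus strand): tgcattttgCCCCTAGGTGGCagaagagta
LINC02552 (chr11:104609277-104609306, plus strand): cattggcatCCTAGAGATGGCattctgaag
LINC02458, first match (chr12:89019740-89019769, plus strand): caggaaggaCCACAAGATGGCagactggaa
LINC02458, second match (chr12:89019774-89019803, plus strand): gtcatggagCCTACAGCAGGCgatgaggtg
LOC105371274 (chr16:54634020-54634049, plus strand): acaaaccttCCAGCAGAGGGCactggcccc

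These matches differed in which lists had a summit beside them. The core of LOC105379102, between the sialyltransferase gene ST8SIA4 and the transporter gene SLCO4C1, lay 25 bp from a deletion summit with a value of 12.5. The nearest WT summit was 224 bp away with a value of 3.41, and no rescue summit stood within 500 bp. The core of LINC02552 lay 36 bp from a deletion summit with a value of 8.72, in an up region of the authors, with the nearest rescue and WT summits 354625 and 391230 bp away. LOC105371274, between the Iroquois homeobox genes IRX3 and IRX5, likewise had a deletion summit alone, 124 bp from the core, with a value of 4.87. LOC107985848 had a rescue summit 32 bp and a deletion summit 115 bp from its core, and none from WT. All 3 lists had a summit at LINC02458, between KITLG, the ligand of the KIT receptor, and the MAP kinase phosphatase gene DUSP6, and at LOC105374715. A match describes the letters in the window and does not show that CTCF bound there.

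Desert summits were sparse in every genotype. In deserts between genes up to 5 Mb apart, ORC2 deletion had 2.38 summits per Mb, rescue 1.31 and WT 1.28, over 528 Mb. Inside protein-coding genes, over 1209 Mb, there were 12.4 per Mb in ORC2 deletion, 8.16 in rescue and 7.29 in WT. The median distance from a desert summit to the next summit of its list was 68.9 kb in ORC2 deletion, 88.4 kb in rescue and 126 kb in WT. For genic summits it was 16.8 kb in deletion, 24.3 kb in rescue and 26.6 kb in WT.

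Deserts took a small share of each list. They held 4.25% of the ORC2 deletion summits (4.03 to 4.48), 3.54% of the rescue summits (3.29 to 3.80) and 3.79% of the WT summits (3.53 to 4.07). The intervals of deletion and rescue do not overlap, while those of deletion and WT and those of rescue and WT do. Genic summits made up 49.1% of the deletion list, 48.4% of the rescue list and 47.3% of the WT list.

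The ORC2 deletion list was also the longest, with 30502 summits on chromosomes 1 to 22, against 20363 in rescue and 18625 in WT. With every list cut to the highest summits, as many as the WT list has, deserts held 3.34% of the deletion list, below the 3.79% of WT. In full lists the deserts had 1.84 times as many deletion as WT summits (1.67 to 2.02), against 1.70 times inside genes (1.65 to 1.74). At equal length the order turned round, with 0.882 times in deserts and 1.01 times inside genes. That cut leaves the WT list whole and takes only low-valued summits from the deletion and rescue lists. Desert summits are more common among those, so the cut cannot decide where the surplus was larger. A minimum value of 5 in every list gave 2.52 times in deserts and 2.01 inside genes. With a minimum of 10 it was 3.33 in deserts and 3.02 inside genes. Values ran higher in the deletion list, with a genic median of 7.80 against 5.95 in WT. A fixed minimum thus takes a larger part of the WT list and raises both ratios, so it cannot decide the question either. Rescue over WT was 1.02 in deserts (0.918 to 1.13) and 1.12 inside genes (1.09 to 1.15). At equal length these ratios were 0.870 in deserts and 1.01 inside genes.

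The deletion list held more desert summits than the WT list on each of the 22 chromosomes. Leaving aside chromosomes 19 and 22, which had 1 and 4 WT desert summits, the ratio ran from 1.47 on chromosome 1 (85 against 58) to 2.44 on chromosome 10 (61 against 25). Chromosome 2 held the most, with 166 in deletion, 105 in rescue and 86 in WT. Of the 506 stretches, 337 had more deletion than WT summits, 111 had as many and 58 had fewer. Deletion summits alone were found in 88 stretches, rescue summits alone in 14 and WT summits alone in 21. These counts were not adjusted for list length. The whole deletion list had 30502 summits against 18625 in WT, and 1.70 times as many inside genes, so a surplus is not particular to deserts.

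Desert summits had lower values than genic summits in all 3 lists. Their median −log10 q was 6.25 in ORC2 deletion (5.99 to 6.63), against 7.80 inside genes (7.67 to 7.91). In rescue it was 5.24 (4.97 to 5.50), against 6.36 inside genes (6.25 to 6.48). In WT it was 4.68 (4.36 to 4.99), against 5.95 inside genes (5.84 to 6.08). The middle part of the desert values ran from 4.08 to 9.85 in deletion, from 3.53 to 7.85 in rescue and from 2.88 to 7.49 in WT (quartiles). The weak end was heaviest in WT, where 22.7% of desert summits fell in the lowest of 10 value classes of equal size, against 14.6% in deletion and 15.6% in rescue. Just inside the 200 kb rule, at 200 to 210 kb from a gene, the medians were 6.93 in deletion (83 summits), 6.22 in rescue (51) and 4.43 in WT (51). Just outside it, at 190 to 200 kb, they were 6.63 in deletion (68 summits), 6.18 in rescue (45) and 5.94 in WT (39).

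**Figure D1:**
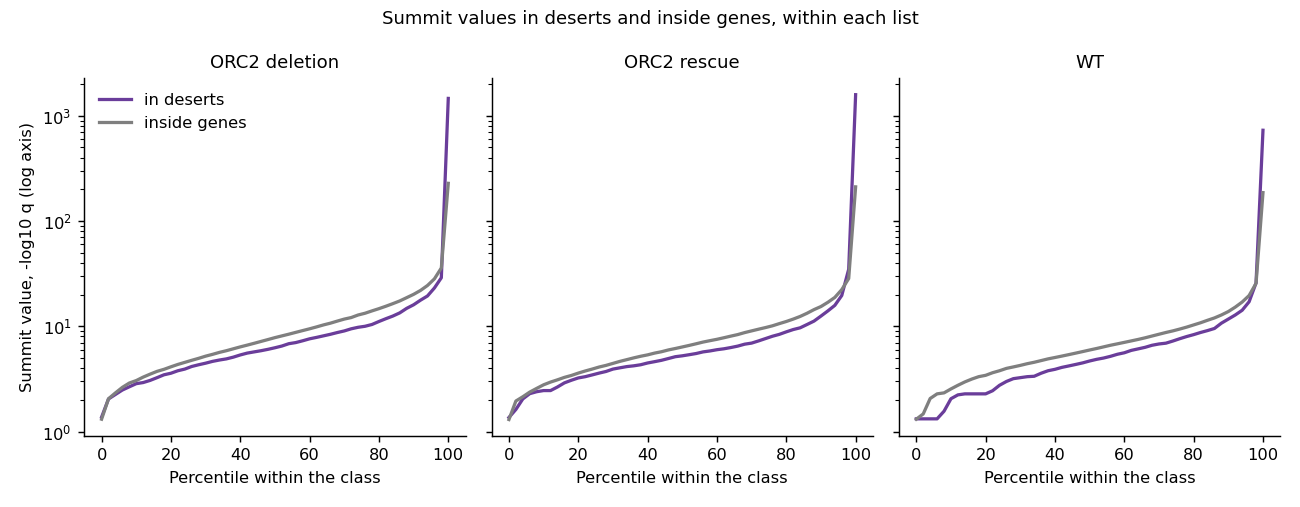
Summit values (−log10 q, log axis) against the percentile of the summit within its class, for summits in deserts (purple) and inside protein-coding genes (grey), in 1 panel per list: ORC2 deletion, ORC2 rescue and WT. The desert curve runs under the genic one over most percentiles, with medians of 6.25 against 7.80 in deletion, 5.24 against 6.36 in rescue and 4.68 against 5.95 in WT. It turns above the genic one at the top, where the highest desert value is 1461 in deletion, 1585 in rescue and 728 in WT.

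The highest desert values stood where IgG, which binds no chromatin protein by design, also gave a summit. The single highest summit of every CTCF list lay between the ephrin receptor gene EPHA3 and PROS1, the gene of the anticoagulant protein S, in the stretch that holds the centromere of chromosome 3. It was at chr3:93470579 with a value of 1461 in ORC2 deletion, at chr3:93470562 with 1585 in rescue and at chr3:93470561 with 728 in WT. The nearest IgG summit of any genotype lay 0 bp from it in deletion, 15 bp in rescue and 16 bp in WT. The next highest, between KCNJ18 and WSB1 on chromosome 17, had 249 in deletion, 337 in rescue and 177 in WT, with an IgG summit 2 to 5 bp away. After it came a site between LINC02798, which RefSeq lists as protein-coding, and the histone gene H3-7, the stretch with the centromere of chromosome 1, with 139 in deletion, 161 in rescue and 100 in WT. A site between LOC102723475 and LOC101927345 on chromosome 21 (61.3 in deletion, 98.4 in rescue) and 2 more between KCNJ18 and WSB1 (81.8 and 61.5 in deletion) also lay within 17 bp of an IgG summit.

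Within 1 kb of an IgG summit of any genotype lay 16 desert summits of ORC2 deletion, 19 of rescue and 15 of WT. Inside genes there were 2 in deletion, 2 in rescue and 0 in WT. Of the 10 highest desert summits, 6 in deletion, 7 in rescue and 7 in WT were such sites. Without the summits near IgG, the desert shares, ratios and medians given here stayed inside their intervals.

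Away from IgG summits the highest desert site of ORC2 deletion and of WT stood at chr11:128157959, inside the lncRNA gene LINC02725, between the cell adhesion gene KIRREL3 and ETS1, the gene of a transcription factor. Its value was 103 in deletion, 65.8 in rescue and 83.1 in WT. A site in LOC101928859 between REEP3 and the alpha-catenin gene CTNNA3 (chr10:63866940) had 76.7 in deletion, 65.9 in rescue and 73.5 in WT. Next was a site in LINC00673 (chr17:72431125), between the transcription factor gene SOX9 and the zinc transporter gene SLC39A11, with 72.9 in deletion, 53.7 in rescue and 35.2 in WT. A deletion summit between the neuropeptide gene NPVF and NFE2L3 (chr7:25854939) had 56.5. Rescue and WT summits lay 0 and 80 bp from it. These strong sites were present in all 3 genotypes.

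Other strong sites shared by all 3 lists also lay in non-coding genes. The receptor locus site at chr14:22314506, in the segment TRAV40, had 47.6 in deletion, 15.4 in rescue and 34.7 in WT. Sites in LOC105370507, in the stretch before the cell cycle phosphatase gene CDKN3, and in LOC105374553, next to the calcium sensor gene STIM2, had 44.9 and 35.2 in deletion. LINC01411, in the stretch before the homeobox gene MSX2, held 2 sites with 34.5 and 32.7 in deletion, 10.0 and 24.8 in rescue, and 9.06 and 12.8 in WT. FAM169BP, a transcribed pseudogene before the growth factor receptor gene IGF1R, had 32.3 in deletion, 21.3 in rescue and 25.9 in WT. LINC02458, shown above, had 29.4 in deletion, 16.8 in rescue and 13.4 in WT.

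Inside lncRNA genes lay 29.2% of the desert summits of ORC2 deletion (26.8 to 31.8), 27.5% of rescue (24.4 to 30.9) and 26.8% of WT (23.6 to 30.2). In deserts between genes up to 5 Mb apart, lncRNA genes covered 24.9% of the bases and held 29.6% of the deletion, 28.3% of the rescue and 27.7% of the WT summits. Up regions took in 45.9% of the deletion summits inside lncRNA genes (41.0 to 50.9) and 42.8% of the others in deserts (39.6 to 46.0), intervals that overlap. MIR7977, a microRNA between NAALADL2 and TBL1XR1, was the only hairpin of 71 in deserts with a summit within 1 kb in all 3 lists, at 789 bp in deletion, 575 bp in rescue and 884 bp in WT.

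The next question was whether the CTCF sites of WT deserts were still called without ORC2. Of the WT desert summits, 75.5% had an ORC2 deletion summit within 500 bp (72.2 to 78.5), against 89.5% of genic WT summits (88.8 to 90.1). Over all WT summits the share was 89.8%. In rescue 58.5% of the WT desert summits were found (54.8 to 62.1), against 75.7% of the genic ones (74.8 to 76.6) and 76.6% of all. WT desert summits were thus found less often than genic ones in both other lists. Between these lists the difference changed with the setting. With lists of equal length, 54.5% of WT desert summits were found in deletion (50.8 to 58.2) and 55.8% in rescue (52.1 to 59.4). These intervals overlap. Inside genes the shares at equal length were 73.9% in deletion and 72.4% in rescue.

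The shortfall in deserts went along with their low values but was also seen within classes of value. With the WT list split by value into 10 classes of equal size, the share found in deletion was lower in deserts than inside genes in 10 of 10 classes, and so was the share found in rescue. In the lowest class 35.0% of desert summits had a deletion summit (28.0 to 42.7), against 57.7% of genic ones (54.5 to 60.9). That class spans values of 1.31 to 2.59, and values were not matched within a class. In the fourth and the eighth class the intervals did not overlap either, and in the others they did. Averaged over the classes with the same weights, 83.6% of desert and 90.0% of genic WT summits were found in deletion. For rescue these averages were 68.1% in deserts and 76.7% inside genes.

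WT desert summits with no deletion summit numbered 173, 24.5% of all in deserts (21.5 to 27.8), against 928 inside genes, 10.5% (9.90 to 11.2). Their median value was 2.28 in deserts and 3.02 inside genes. A rescue summit stood at 13.3% of those in deserts (9.02 to 19.2), against 21.7% of those inside genes (19.1 to 24.4) and 21.1% of all. The WT desert sites without a deletion summit were thus weak in WT, and few of them had a rescue summit.

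Deletion summits with no WT summit within 500 bp numbered 764 in deserts, 58.9% (56.2 to 61.6), against 7073 inside genes, 47.2% (46.4 to 48.0), and 45.2% of all. Their median value was 4.87 in deserts and 5.05 inside genes. Of these, 26.3% had a rescue summit in deserts (23.3 to 29.5), against 32.5% inside genes (31.4 to 33.6) and 32.2% of all.

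The authors' up regions took in 567 of the 1297 desert summits of ORC2 deletion, 43.7% (41.0 to 46.4), against 32.2% of the genic ones (31.5 to 33.0). Over all deletion summits the share was 30.9%. The up list marks presence and absence: of the 563 desert deletion summits with neither a WT nor a rescue summit within 500 bp, 562 lay in up regions. Of the 567 in up regions, 2 had a WT and 3 had a rescue summit that near. The share in up regions is therefore the shares above seen from the deletion list, and not a separate measurement. Down regions took in 22 of the 706 WT desert summits, 3.12% (2.07 to 4.67), against 1.83% of genic ones (1.57 to 2.13) and 1.83% of all. All 22 had a rescue summit and none a deletion summit.

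Here too part of the difference went along with the values. In 8 of 10 value classes of the deletion list the up share was higher in deserts, and in the 2 lowest classes it was higher inside genes. In the lowest class it was 79.4% in deserts (73.0 to 84.5) and 80.5% inside genes (78.4 to 82.3). In the eighth class it was 12.7% in deserts (7.02 to 21.8) and 4.41% inside genes (3.45 to 5.61). The intervals did not overlap there and in the ninth class, and overlapped in the others. Averaged over the classes with the same weights the shares were 35.7% in deserts and 31.0% inside genes.

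**Figure D2:**
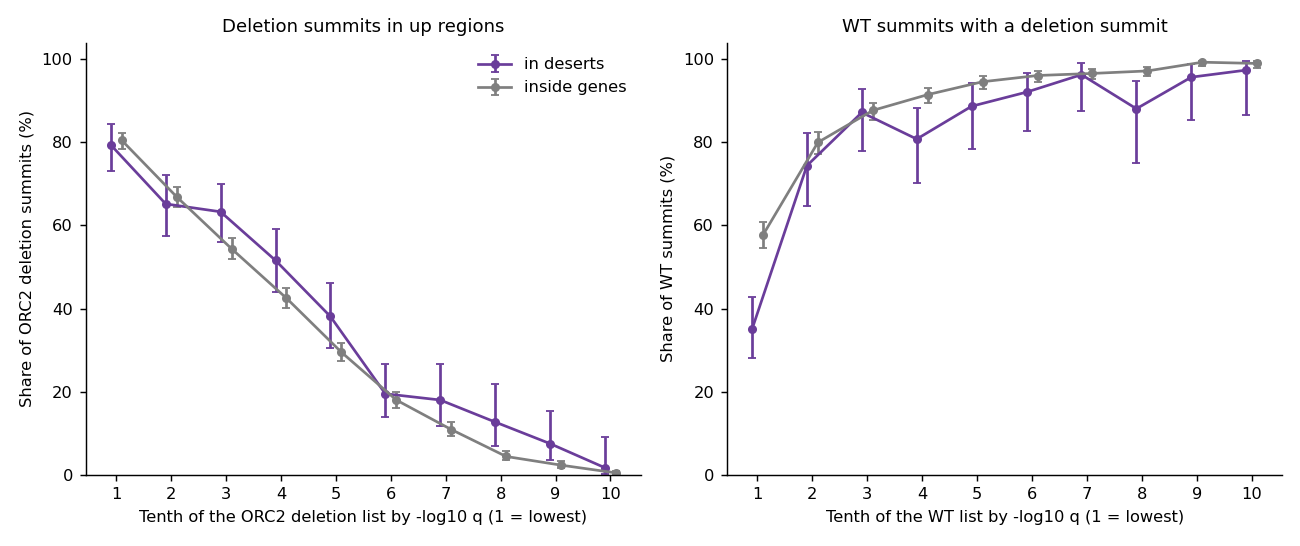
Left, share of ORC2 deletion summits in the authors' up regions by class of the deletion list's −log10 q (10 classes of equal size). Right, share of WT summits with a deletion summit within 500 bp by class of the WT list's −log10 q. Purple points are desert and grey points genic summits, with 95% Wilson intervals. The desert points lie above the genic ones in 8 of 10 classes on the left and below them in 10 of 10 on the right, where the lowest class has 35.0% against 57.7%.

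The same measures changed with the distance from the nearest gene. Up regions held 27.1% of the deletion summits 10 to 50 kb from a gene and 34.8% of those at 100 to 200 kb. In deserts they held 41.3% at 200 to 500 kb (38.1 to 44.5), 49.1% at 500 kb to 1 Mb (43.5 to 54.8) and 50.5% beyond 1 Mb (40.5 to 60.6). WT summits found in deletion made up 92.5% at 10 to 50 kb, the highest share of any distance, and so more than inside genes. In deserts they made up 77.8% at 200 to 500 kb (74.0 to 81.2), 70.9% at 500 kb to 1 Mb (63.2 to 77.5) and 66.0% beyond 1 Mb (52.2 to 77.6). The median WT value was 6.85 at 10 to 50 kb and 4.22 beyond 1 Mb. Beyond 1 Mb there were 91 deletion, 42 rescue and 50 WT summits, and the intervals there are wide.

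**Figure D3:**
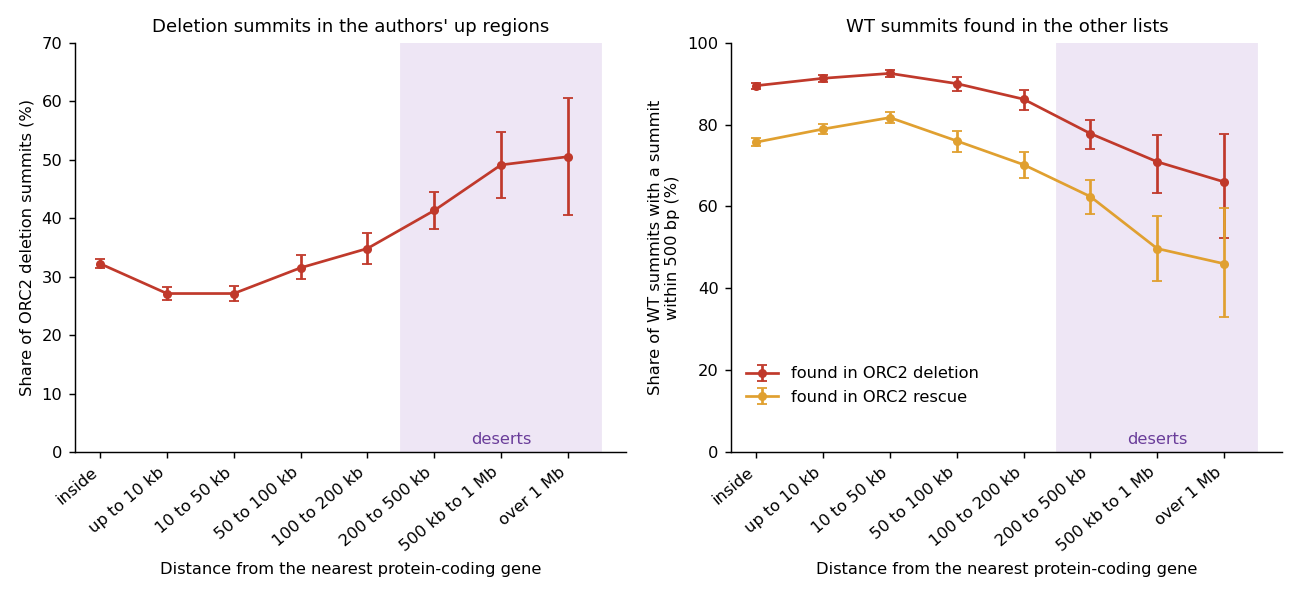
Left, share of ORC2 deletion summits in the authors' up regions. Right, share of WT summits with a deletion summit (red) or a rescue summit (yellow) within 500 bp. Both are plotted by distance from the nearest protein-coding gene, with 95% Wilson intervals and deserts shaded. The up share is 27.1% at 10 to 50 kb and 50.5% beyond 1 Mb, and the share of WT summits found in deletion is 92.5% and 66.0% at the same distances.

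Summits of the 3 lists were then joined into sites, with at most 500 bp between neighbours. Of the 1573 desert sites, 24.9% had a summit of all 3 lists (22.8 to 27.1), against 39.0% of 16841 genic sites (38.2 to 39.7). Sites with a deletion summit alone made up 35.7% in deserts (33.4 to 38.1) and 28.3% inside genes (27.6 to 29.0). Sites with a WT summit alone made up 9.54% in deserts (8.18 to 11.1) and 4.30% inside genes (4.01 to 4.62). Sites with deletion and rescue summits only made up 12.8% in deserts and 13.6% inside genes. Desert sites were thus more often found in a single list, and this held for the WT list as well as for the deletion list.

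Among the deserts with most summits, several lie beside developmental regulators. The stretch between KCNJ2, a potassium channel gene, and SOX9, a transcription factor gene of cartilage, testis and gut epithelium (1.94 Mb on chromosome 17), held 13 deletion, 8 rescue and 6 WT summits at 13 sites. All 3 lists shared 6 of these sites, deletion and rescue shared 2 and deletion alone had 5. The strongest WT site, at chr17:70767211, had a value of 17.0 in deletion, 7.64 in rescue and 16.2 in WT. The sites with a deletion summit alone had values of 1.79 to 9.0. No WT or rescue site in this desert lacked a deletion summit.

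The stretch between KLF4, a gene of a zinc finger factor of stem cells and gut epithelium, and ACTL7B, an actin-like gene (1.36 Mb on chromosome 9), had the largest surplus, with 15 deletion, 5 rescue and 5 WT summits. Deletion alone had 9 of its 15 sites, with values of 1.91 to 10.3, and all 9 lay in up regions. The 4 sites of all 3 lists had 9.79, 11.4, 17.3 and 10.0 in deletion, 6.56, 4.23, 3.07 and 4.91 in rescue, and 3.78, 3.23, 2.12 and 8.40 in WT.

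Between the ribosomal protein gene RPS24 and the transcriptional coregulator gene ZMIZ1 (1.01 Mb on chromosome 10) there were 10 deletion, 1 rescue and 2 WT summits. Of its 10 sites 8 had a deletion summit alone, with values of 2.54 to 14.9, and 1 had all 3 lists, with 11 in deletion, 8.20 in rescue and 6.15 in WT. The stretch between the forkhead gene FOXL1 and C16orf95 held 9 deletion, 4 rescue and 3 WT summits. Its 2 strongest sites were in all 3 lists, with 29.4 and 23.7 in deletion, 18.1 and 11.1 in rescue, and 22.4 and 12.9 in WT. Most of the deletion-only summits of the KLF4, RPS24 and FOXL1 deserts had a lower value than the strongest shared site beside them. The stretch with the centromere of chromosome 16, between LOC124903767 and SHCBP1, had 7 deletion, 2 rescue and 1 WT summits.

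Further deserts were among those with the most summits. Between MTX2, which lies beside the HOXD cluster, and HNRNPA3 there were 11 deletion, 9 rescue and 5 WT summits. Its strongest site, at chr2:176638470, had 23.8 in deletion, 21.5 in rescue and 26.6 in WT. Between PTPRU, a receptor phosphatase gene, and MATN1, a cartilage matrix gene, there were 15 deletion, 9 rescue and 10 WT summits, and 6 of 16 sites were in all 3 lists. The receptor locus between OR4E1 and DAD1 had 16 deletion, 9 rescue and 11 WT summits, with 8 of 18 sites in all 3 lists.

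On chromosome 8, the stretch between the pseudokinase gene TRIB1 and LRATD2 had 14 deletion, 10 rescue and 9 WT summits, and the next, between LRATD2 and POU5F1B, a retrogene of the stem cell factor gene POU5F1, had 10 deletion, 6 rescue and 7 WT summits. Between the heparan sulfate sulfotransferase gene HS3ST1 and the GTPase gene RAB28 there were 11 deletion, 8 rescue and 9 WT summits. Between AGA, a gene of a lysosomal enzyme, and the teneurin gene TENM3 there were 10 deletion, 7 rescue and 9 WT summits over 4.01 Mb. The stretch between KCNJ18 and WSB1, which holds the centromere of chromosome 17, had 9 deletion, 8 rescue and 6 WT summits, and IgG summits lay in it as well.

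**Figure D4:**
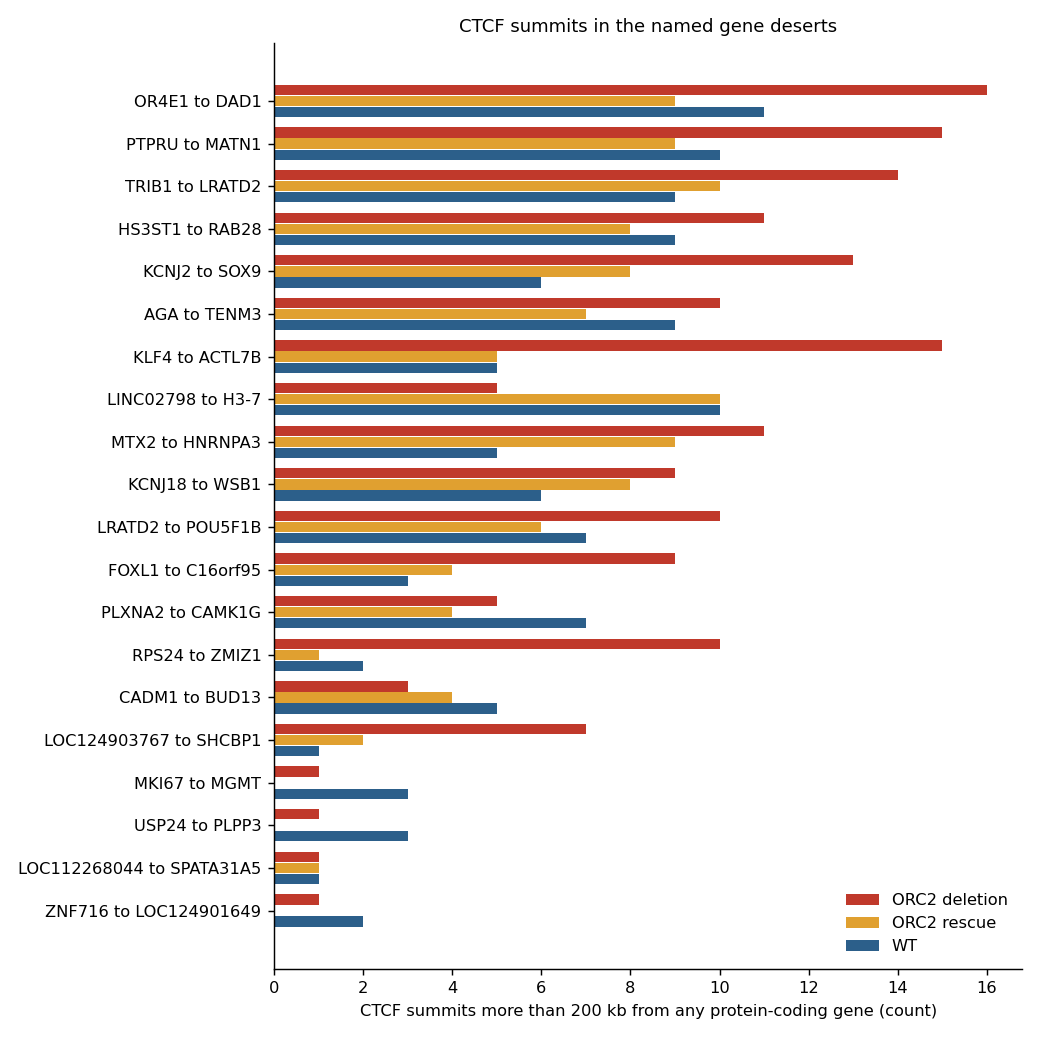
Number of CTCF summits more than 200 kb from any protein-coding gene in named deserts, in ORC2 deletion (red), ORC2 rescue (yellow) and WT (blue). Most named deserts have more deletion than WT summits, up to 15 against 5 between KLF4 and ACTL7B, while LINC02798 to H3-7 has 5 against 10 and PLXNA2 to CAMK1G has 5 against 7.

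Few deserts had fewer deletion than WT summits by more than 1. The largest deficit was between LINC02798 and H3-7, with 5 deletion, 10 rescue and 10 WT summits, and this is the stretch with the centromere of chromosome 1 in which IgG summits lie. A further 10 deserts had a deficit of 2 summits, of which the first 4 by position are given. Between the plexin gene PLXNA2 and the kinase gene CAMK1G there were 5 deletion, 4 rescue and 7 WT summits. Between USP24 and PLPP3 there were 1 deletion, 0 rescue and 3 WT summits, and the same counts were found between the proliferation marker gene MKI67 and the DNA repair gene MGMT.

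Between the cell adhesion gene CADM1 and the splicing gene BUD13 (1.24 Mb on chromosome 11) there were 3 deletion, 4 rescue and 5 WT summits. The site at chr11:116276681 in this desert had a value of 4.76 in deletion, below the median desert value of that list (6.25). It had 42.5 in rescue and 38.7 in WT, above the medians of those lists (5.24 in rescue and 4.68 in WT). A neighbouring site (chr11:116217053) had 8.06 in deletion, 9.57 in rescue and 11.6 in WT. At chr11:116499497 rescue had 8.08 and WT had 2.99, with no deletion summit, and the authors' down list held this site.

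**Figure D5:**
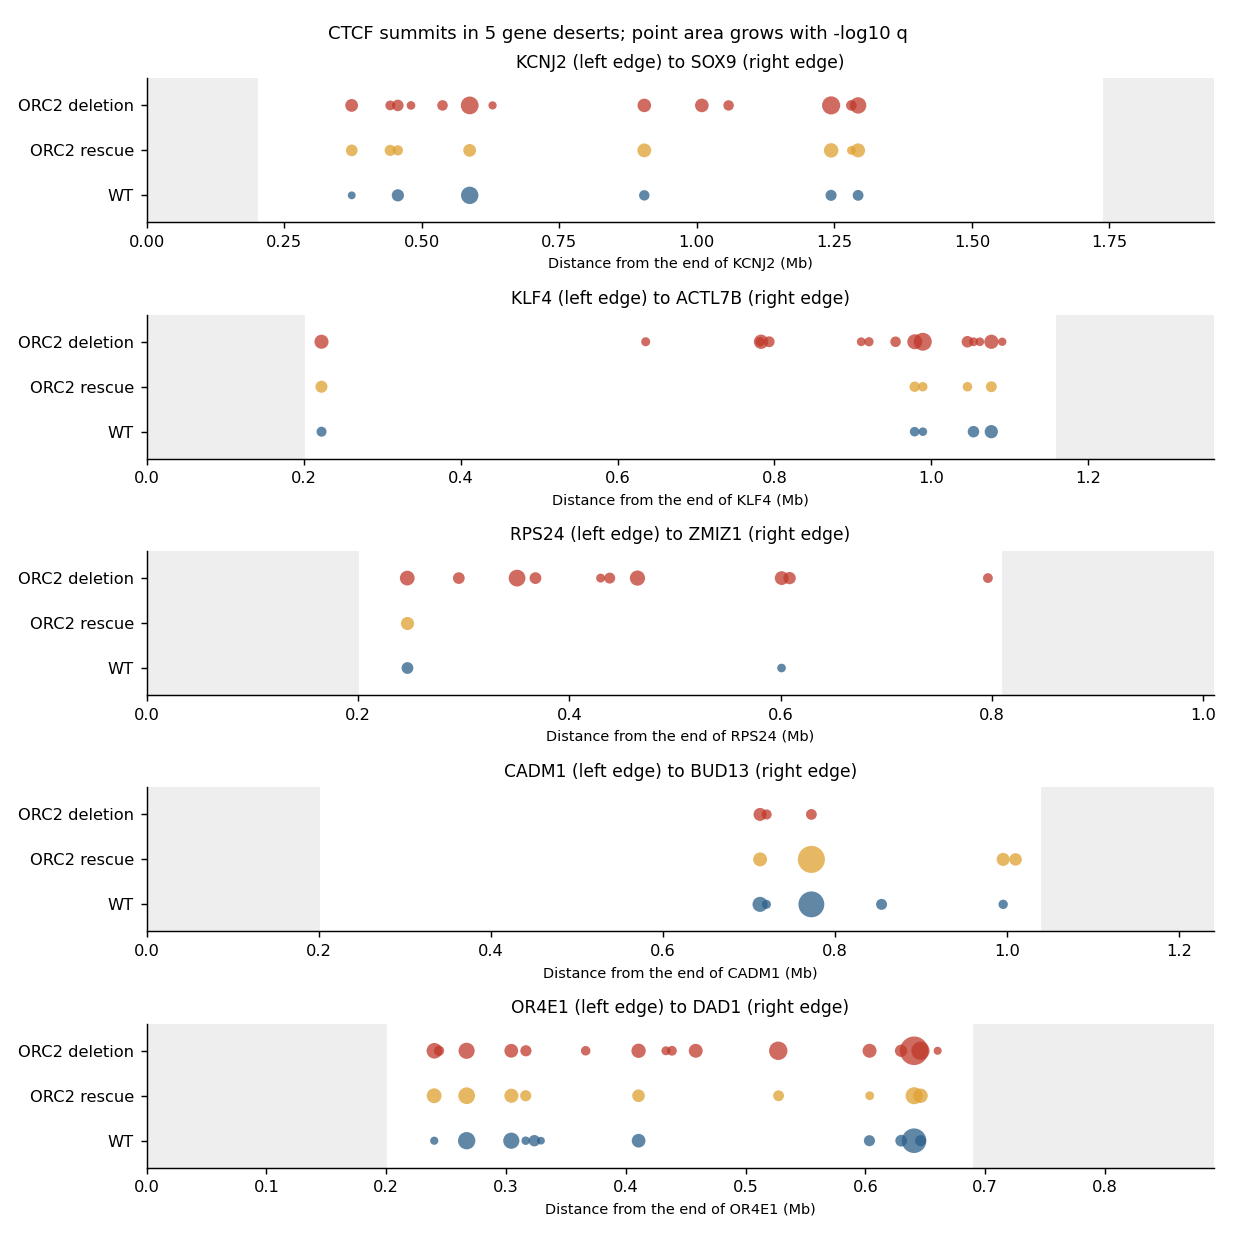
CTCF summits of ORC2 deletion, ORC2 rescue and WT in 5 deserts, by distance in Mb from the higher-coordinate end of the gene at the left edge. There is 1 point per list and site, point area grows with −log10 q, and the 200 kb next to either gene is grey. Deletion-only points fill the KLF4 to ACTL7B and RPS24 to ZMIZ1 deserts (9 and 8 sites), while the large point of the CADM1 to BUD13 desert has 4.76 in deletion, 42.5 in rescue and 38.7 in WT.

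The strongest desert summits of the up regions had moderate values. The highest stood between CD109, a gene of a membrane protein, and the collagen gene COL12A1 (chr6:74594713), with 23.1, rank 2445 of the deletion list. Next came summits between COX7C and the RAS regulator gene RASA1 (chr5:87013399, 19.9) and between STIM2 and LOC124900844 (chr4:30380463, 19.5). Summits between ZNF92 and VKORC1L1 and between HS3ST3B1 and the myelin gene PMP22 had 16.9 and 16.0. Further ones among the first 10, beside OTOL1, ZNF337, RPS24 and TMEM132B, had 15.7, 15.2, 14.9 and 14.3. The nearest WT summit to the first was 503113 bp away and the nearest rescue summit 19721 bp away.

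The WT summits of down regions in deserts were ranked by their value in the WT list. Of the 22, the first by WT value lay between LINC02798 and H3-7 (chr1:143264679, 23.5), at the position of an IgG summit, and the fourth (chr1:143213211, 6.38) was 10 bp from another. The second lay between SPATA18 and USP46 (chr4:52376113, 9.24). Summits beside KCNS3, PIK3C3, KCNH7, OTOL1, XYLT1 and ZNF337 had 5.84, 5.66, 5.44, 4.82, 4.55 and 4.43.

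The summits farthest from any gene lay mostly next to a chromosome end or a centromere. On the short arm of chromosome 22, before OR11H1, deletion summits at 4593244 and 4242257 bp from that gene had 21.4 and 8.87, and rescue summits at 4593127 and 2897116 bp had 6.22 and 3.28. No WT summit stood within 5 Mb of the first. The farthest of WT was the site beside an IgG summit at the centromere of chromosome 1, 3717058 bp from a gene. The next of WT were 2553795 bp from a gene between KCNJ18 and WSB1 (9.36) and 1975518 bp away between C4orf33 and the protocadherin gene PCDH10 (4.36). The 5 longest stretches differed in their summits. The longest, LINC02798 to H3-7 with 22.4 Mb, was among those with the most, and LOC124903767 to SHCBP1 with 12.2 Mb held 10 over the 3 lists. There was 1 in each list over 18 Mb between LOC112268044 and SPATA31A5, 1 deletion, 0 rescue and 2 WT over 6.28 Mb between ZNF716 and LOC124901649, and none over 6.01 Mb between ANKRD30B and ROCK1.

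Deserts were also grouped by the genes at their edges, using 6 gene lists. Those beside developmental transcription factors (69 deserts) held 213 deletion, 116 rescue and 98 WT summits, and 46.5% of the deletion summits lay in up regions (39.9 to 53.2). KCNJ2 to SOX9, KLF4 to ACTL7B and NSG2 to MSX2, with 7 deletion, 6 rescue and 4 WT summits, were among those with the most summits. Beside cadherins and protocadherins, adhesion proteins, 17 deserts held 55 deletion, 25 rescue and 31 WT summits, with 47.3% in up regions (34.7 to 60.2). Among them C4orf33 to PCDH10 had 11 deletion, 4 rescue and 5 WT summits, and PCDH7 to ARAP2 had 6 deletion, 2 rescue and 7 WT summits.

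Beside genes of neuronal adhesion and guidance, 67 deserts held 189 deletion, 101 rescue and 111 WT summits, with 45.5% in up regions (38.6 to 52.6). CTNNA2 to SUCLG1 had 11 deletion, 6 rescue and 5 WT summits, and ZPLD1 to ALCAM had 9 deletion, 6 rescue and 4 WT summits. Beside neurotransmitter receptors and ion channels, 38 deserts held 91 deletion, 55 rescue and 57 WT summits, with 35.2% in up regions (26.1 to 45.4). Beside secreted growth factors and their antagonists, 23 deserts held 47 deletion, 27 rescue and 29 WT summits, with 31.9% in up regions (20.4 to 46.2). Among them DDHD1 to BMP4, a bone morphogenetic protein gene, had 5 deletion, 4 rescue and 3 WT summits. Beside intestinal epithelium genes, 5 deserts held 22 deletion, 16 rescue and 13 WT summits, with 31.8% in up regions (16.4 to 52.7). Deletion over WT was 2.17 beside developmental transcription factors, 1.77 beside cadherins and protocadherins, 1.70 beside neuronal adhesion and guidance genes, 1.60 beside receptors and channels, 1.62 beside growth factors and 1.69 beside intestinal genes, and the ratios were not tested against the 1.84 of all deserts. The intervals of the up shares of all 6 lists hold the 43.7% of all desert summits, and a desert with listed genes at both edges or in several lists is counted in each.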

How the data were processed

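CTCF CUT&RUN libraries of ORC2 deletion, rescue and WT HCT116 p53-/- cells were used, with IgG libraries as background. Per the submitters' processing notes, the tools were Bowtie2 (2.2.9), FastQC (0.11.5), MACS2 with no version given and SAMtools (1.12), and the build was hg38. How peaks were called, duplicates treated and replicates pooled is not given in the sources used here. Each list was taken as the pool of its group. The summit lists deposited by the authors give 1 base per peak with the −log10 of q as its value, and the deposited up (9603) and down (364) regions give starts and ends only.

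Distances were measured to the 18973 protein-coding genes of chromosomes 1 to 22 in a RefSeq table (GRCh38.p14). The table lists genes of other scaffolds under the name of a chromosome, and 676 such entries were left out. Summits were called shared within 500 bp. Shares have 95% Wilson intervals, ratios of counts exact binomial ones and medians ones from order statistics. Shares were averaged over 10 value classes of equal size, weighted alike for desert and genic summits. With 1 list per genotype no test was made.

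Deserts and summits were named by rank: by number of summits, length, value, surplus or deficit of deletion over WT summits, distance from genes, and the 6 gene lists at their edges. Some named items are not reported here. The members and lists were chosen with earlier results of these data known. The alternatives were desert distances of 100 and 500 kb, stretches of at most 5 Mb, a −log10 q of at least 5 or 10, lists of equal length, shared distances of 50, 100 and 1000 bp, 1 summit per 100 kb, and lists without summits within 1 kb of an IgG summit. Leaving out summits near IgG for shared summits and medians, and leaving out deserts of immune receptor segments, were added after seeing the data. Distances, matching and intervals were checked on simulated data. Scripts ran in Python 3.11.15 with matplotlib 3.10.9, SciPy 1.17.1, pandas 2.3.3 and NumPy 2.4.6.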

Additional observations from a re-analysis of the deposited data

Results flagged for a closer look

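The IgG lists, which the main comparisons of CTCF sites do not use, held summits in the deserts. There were 21 in ORC2 deletion, of 34 on chromosomes 1 to 22, 11 in rescue, of 19, and 12 in WT, of 17. Of the 21 in deletion, 9 had no WT IgG summit within 1 kb, and 16 had a deletion CTCF summit within 500 bp. In rescue 11 of 11 and in WT 10 of 12 had a CTCF summit of the same genotype that near. They lay in few stretches, among them EPHA3 to PROS1, where the highest IgG summit had a −log10 q of 1620 in deletion, 552 in rescue and 601 in WT, KCNJ18 to WSB1 and LINC02798 to H3-7. The rescue IgG list is of 1 library.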

How the results depend on the processing

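Of 105 desert values under alternative settings, 53 stayed within the interval of the main value and 52 did not. Restricting deserts to stretches of at most 5 Mb, leaving out summits near IgG, and leaving out immune receptor deserts moved none of them outside it. Deserts stayed below genes in the share of WT summits found in deletion and in rescue, in the share of gained summits found in rescue and in the median value under all settings run, and above genes in the up share. Deletion over WT was higher in deserts than in genes in 9 of 10 settings, the main one included, and these share many summits. In the main setting the desert interval (1.67 to 2.02) holds the genic ratio of 1.70. It lay clear above the genic ratio only with a minimum of 5 (2.22 to 2.88 against 2.01) and with 1 summit per 100 kb (1.48 to 1.83 against 1.32). At equal list lengths it lay below (0.791 to 0.984 against 1.01). The cause of the shifts between settings was not tested. Ratios, shares and medians limited to few summits, such as those beyond 500 kb, have wide intervals, and unknown depth limits all comparisons of list lengths. No paired analysis was possible because the lists, 1 per genotype, carry no replicate numbers, and leaving out a replicate was likewise not possible.

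With deserts beyond 100 kb, they held 8.5% of the deletion, 7.55% of the rescue and 7.87% of the WT summits, the up share was 39.2%, and 81.0% of WT summits were found in deletion and 64.6% in rescue. Medians were 6.79 in deletion, 5.63 in rescue and 5.18 in WT. Beyond 500 kb the shares were 1.26% in deletion, 0.923% in rescue and 1.08% in WT, the up share 49.5%, WT summits found 69.7% in deletion and 48.8% in rescue, gained summits in rescue 22.5%, and medians 5.86 in deletion and 4.94 in rescue. With a minimum of 5, the shares were 3.67% in deletion, 2.85% in rescue and 2.76% in WT, the up share 27.4%, WT summits found in deletion 86.1%, deletion over WT 2.52 and rescue over WT 1.19. With a minimum of 10 they were 2.59% in deletion, 1.95% in rescue and 2.14% in WT, the up share 10.5%, WT summits found 78.7% in deletion and 48.9% in rescue, gained summits in rescue 17.6%, deletion over WT 3.33 and rescue over WT 1.14. At equal list lengths, deserts held 3.34% of the deletion list, deletion over WT was 0.882 and rescue over WT 0.870, 54.5% of WT summits were found in deletion and 55.8% in rescue, and 41.2% of gained summits were found in rescue. Inside genes deletion over WT was 2.01 with a minimum of 5, 3.02 with a minimum of 10 and 1.01 at equal list lengths. Of the genic gained summits, 50.3% were found in rescue at equal list lengths. With 1 summit per 100 kb, the shares were 6.76% in deletion, 5.02% in rescue and 5.37% in WT. Deletion over WT was then 1.64 in deserts and 1.32 inside genes. Within 50 bp, 32.2% of WT summits were found in deletion and 24.5% in rescue, and 15.1% of gained summits in rescue. Within 100 bp 48.2% of WT summits were found in deletion and 37.0% in rescue, and 20.2% of gained summits in rescue. Averaged over value classes, the up share was 35.7%, and WT summits found were 83.6% in deletion and 68.1% in rescue.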
